A study of Mus musculus with 5 samples.

Results

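Vim, Nes, Prph, Nefl, Nefm, Des, Krt7, Krt8, Krt18 and Krt19 encode intermediate filament proteins of mesenchymal, neural, muscle and epithelial cells. These 10 genes were taken by name from the 27729 genes of each expression table, and the astroglial filament gene Gfap was left outside the set. They were followed through the conversion of mouse embryonic fibroblasts (MEFs) towards neuron-like cells in a serum-free chemically defined medium. There were 5 RNA-seq libraries, 1 per time point (day 0, day 2, day 5, day 10 and day 14). All 5 came from MEFs of the ICR strain with no transgene. The day 0 library came from MEFs in DMEM with fetal bovine serum, Glutamax and non-essential amino acids. The libraries of days 2, 5, 10 and 14 came from MEFs moved to the medium that the labels call 6C, which per the study's methods is made of DMEM/F12 with the N2 supplement, the growth factor bFGF, the cytokine LIF, 2-mercaptoethanol and vitamin C. Per those methods the MEFs were derived from embryos without head and internal organs, and weakly attached cells were washed off before use. Each day is thus 1 library of a mixed culture, with no replicate, and no value below carries a test between conditions.

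Intermediate filaments are rope-like polymers that give cells tensile strength and anchor nuclei, organelles and junctions. Vimentin, desmin and peripherin can each polymerize on their own, nestin joins vimentin or desmin filaments, and neurofilaments are built from a light chain with longer subunits alongside it. Keratins polymerize only as pairs of one type I chain, such as Krt18 or Krt19, and one type II chain, such as Krt7 or Krt8. The filament type follows the cell type, with vimentin in mesenchyme, nestin in neural stem cells, desmin in muscle, neurofilaments and peripherin in neurons, and Krt8 with Krt18 in simple epithelia.

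Members that ended higher and members that ended lower are shown side by side by the 250 bases before the RefSeq transcription start (build GRCm38.p6, transcript strand, 5′ to 3′), for those with a RefSeq window that reached 100 expected counts in any library. RefSeq windows, which reach from 250 bases before to 50 bases after the start, were matched for 7 of the 10 genes. Capitals mark the letters of a TATA box (TATAAA), the letters of a CCAAT box (CCAAT) and the letters of a GC box (GGGCGG), each on either strand, and no marked stretch overlaps another.
Vim, chr2:13574061-13574310, plus strand: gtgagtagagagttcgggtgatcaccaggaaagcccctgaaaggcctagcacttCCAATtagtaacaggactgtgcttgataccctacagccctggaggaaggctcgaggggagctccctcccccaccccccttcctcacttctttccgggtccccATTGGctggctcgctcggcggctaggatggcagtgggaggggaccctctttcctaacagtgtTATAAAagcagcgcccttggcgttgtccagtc
Nes, chr3:87970843-87971092, plus strand: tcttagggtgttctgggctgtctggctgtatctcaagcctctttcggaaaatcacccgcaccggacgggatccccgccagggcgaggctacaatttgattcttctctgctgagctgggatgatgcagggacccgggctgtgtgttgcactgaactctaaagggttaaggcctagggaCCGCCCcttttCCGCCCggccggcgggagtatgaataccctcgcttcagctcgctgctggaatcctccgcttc
Des, chr1:75360042-75360291, plus strand: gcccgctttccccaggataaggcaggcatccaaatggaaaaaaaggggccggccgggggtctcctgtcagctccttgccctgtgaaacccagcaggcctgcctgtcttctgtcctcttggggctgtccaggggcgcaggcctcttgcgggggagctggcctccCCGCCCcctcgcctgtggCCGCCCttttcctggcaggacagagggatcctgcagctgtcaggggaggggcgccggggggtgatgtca
Krt7, chr15:101412153-101412402, plus strand: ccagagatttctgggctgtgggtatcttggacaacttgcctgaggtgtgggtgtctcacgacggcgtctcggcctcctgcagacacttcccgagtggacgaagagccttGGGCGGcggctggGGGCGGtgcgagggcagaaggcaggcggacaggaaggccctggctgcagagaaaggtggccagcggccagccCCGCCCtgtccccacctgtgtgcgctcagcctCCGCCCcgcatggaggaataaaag
Krt18, chr15:102027966-102028215, plus strand: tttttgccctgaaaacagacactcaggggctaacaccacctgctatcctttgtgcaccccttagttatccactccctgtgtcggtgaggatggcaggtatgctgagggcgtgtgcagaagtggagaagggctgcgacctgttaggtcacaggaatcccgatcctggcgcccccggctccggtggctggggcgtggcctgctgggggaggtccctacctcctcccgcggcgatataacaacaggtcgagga
The Vim window held a TATA box 32 to 27 bases before the start and 2 CCAAT boxes. GC boxes stood in the windows of Nes with 2, Des with 2 and Krt7 with 4, and none of the 3 motifs was in the Krt18 window. Of all 32851 RefSeq windows of this length, 13.6% held the TATA box, 37.4% the CCAAT box and 35.7% the GC box. A match describes these letters and is not a binding site.

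The libraries held 2253748 to 3890334 expected counts, the day 2 library being the shallowest. Expected counts are the reads that RSEM assigned to a gene, which need not be whole numbers. Normalized counts below are expected counts scaled to a common library size with TMM factors of 0.808 to 1.19, and they serve for comparing 1 gene between days. TPM as deposited, which divides by transcript length, serves for comparing genes within a day. Changes are log2 ratios of normalized counts plus a pseudocount of 1, with a 95% counting interval in parentheses. The interval (exact Clopper-Pearson) covers counting error only, since reads without molecular identifiers are not independent molecules, and leaves out the spread between cultures. The day 2 library also stood apart by the RNA gene Gm42418, which took 4.79% of its counts against 0.0484% to 0.109% elsewhere, and library sizes computed without it and Lars2 left each member over 2-fold where it had been. In bulk RNA, fewer cells of a type and less RNA per cell cannot be told apart. On day 0, 10 of 10 fibroblast markers reached 10 expected counts. So did 8 of 8 smooth muscle and myofibroblast markers, and 11151 of all genes, so this does not test the cell type label. A filter of at least 10 expected counts in at least 1 library was passed by 13346 of all genes and by 9 of the 10 intermediate filament genes, Prph being left below it.

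**Figure D1:**
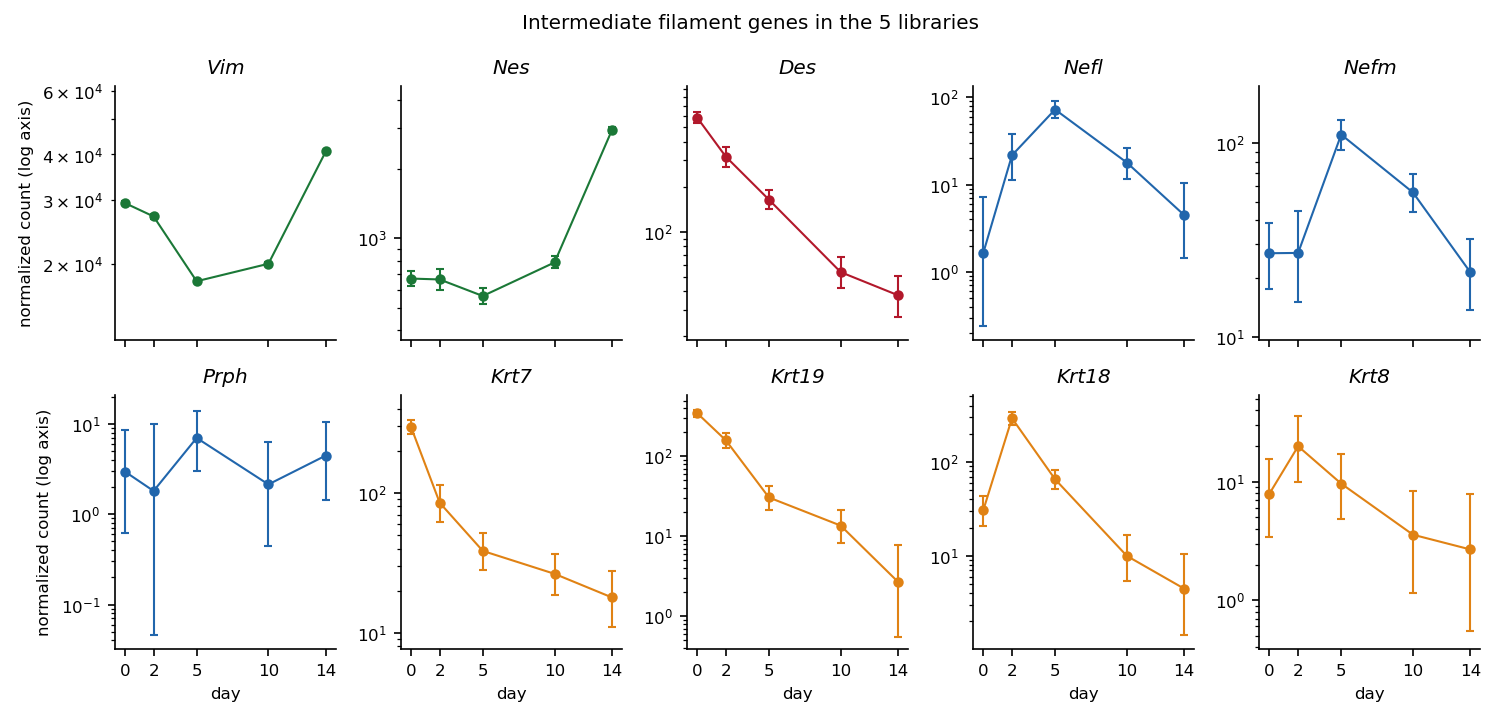
Normalized count (log axis, with its own range in each panel) of each of the 10 genes against day, 1 point per library, with exact Poisson 95% intervals as bars for counting error only. Vim and Nes peaked on day 14, Nefl and Nefm on day 5, Krt18 on day 2, and Des, Krt7 and Krt19 were highest on day 0.

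Vim and Nes, which encode the mesenchymal filament vimentin and its partner nestin, stood highest on day 14. Vim (ENSMUSG00000026728, chromosome 2, 13573927 to 13582826, plus strand, GRCm38) had 29400, 27000, 17900, 20000 and 40800 normalized counts from day 0 through day 14. The day 5 and day 10 libraries were thus below day 0 and the day 14 library above it. Against day 0 the log2 change was -0.71 (-0.74 to -0.69) at day 5 and 0.47 (0.45 to 0.49) at day 14, and from day 10 to day 14 it was 1.03 (1.00 to 1.05). Vim was among the most abundant transcripts throughout. By expected count it ranked between 10 (day 2) and 1 (day 14) of all genes, and it took 0.763% of all expected counts on day 0 and 1.36% on day 14. By TPM its rank was 16 on day 0, 39 on day 2 and 1 on day 14.

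Nes (ENSMUSG00000004891, chromosome 3, 87971078 to 87980451, plus strand) had 670, 664, 563, 787 and 2950 normalized counts in the same order of days. The first 4 libraries lay between 563 and 787, and the day 14 library stood above all of them. Its change from day 0 was -0.01 (-0.20 to 0.17) at day 2, then -0.25 (-0.41 to -0.09) at day 5, then 0.23 (0.09 to 0.37) at day 10, and it reached 2.14 (2.02 to 2.26) at day 14. The directions at days 5 and 10 depend on the scale, from -0.57 relative to genes of like length to 0.46 on TPM at day 5, and from -0.81 to 1.37 at day 10. The day 14 value is a 4.4-fold difference, of which 3.75-fold fell between day 10 and day 14. Per length, the Vim transcript was 172 times as abundant as Nes on day 0 and 49.1 times on day 14 (interval 47.2 to 50.6).

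Des (ENSMUSG00000026208, chromosome 1, 75360329 to 75368579, plus strand), which encodes the muscle filament desmin, was on normalized counts lower in each library than in the one before it, although on TPM the step from day 2 to day 5 was 0.02. Its normalized counts were 582, 318, 164, 53.6 and 37.5 over the 5 libraries. Against day 0 the change was -0.87 (-1.12 to -0.62) at day 2 and -3.92 (-4.44 to -3.50) at day 14, a 15.5-fold lower level. Its largest step between neighbouring libraries was from day 5 to day 10, at -1.59 (-2.02 to -1.22), while the step from day 10 to day 14, -0.50 (-1.09 to 0.05), lay within counting error. Per length, Vim exceeded Des 100-fold on day 0 and 1790-fold on day 14.

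Most markers of contractile cells were lower beside Des. The summed TPM of 8 smooth muscle and myofibroblast markers went from 11300 on day 0 through 1580, 742 and 455 to 212 on day 14. Of the 8, 7 were over 2-fold below day 0 on each later day, beside 13.1% to 22.3% of all genes. Their most abundant genes were Acta2 and Tagln, with 32000 and 16200 normalized counts at the start and 142 and 181 at the end. The 11 skeletal muscle markers summed to 160, 29.2, 8.82, 9.35 and 5.99 TPM. Of these, 5 reached 10 expected counts in a library, led by Acta1 with 585.31 on day 0. On day 14, 4 of the 5 were over 2-fold below day 0 and 1 above, beside 19.9% and 24.5% of all genes. The 1 above was Myh8, with changes of 3.06 on day 10 and 2.20 on day 14. Tnnt1 was 1.65 higher on day 2. The defining factor Myf5 was listed at 0 in each library, and Myod1 had 1 expected count on day 0. The part of these cells in the Des values was not tested.

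Nefl and Nefm, the light and medium neurofilament chains, were highest on day 5 and not on day 14. Nefl (ENSMUSG00000022055, chromosome 14, 68083863 to 68089095, plus strand) had 1.67, 12, 83, 25 and 5 expected counts from day 0 through day 14, or 1.65, 21.7, 72.6, 17.9 and 4.47 after normalization. The day 5 library was above the other 4, and days 0 and 14 were near the limit of detection. The change from day 0 was 3.10 (1.29 to 6.66) at day 2, then 4.79 (3.30 to 8.27) at day 5, then 2.83 (1.17 to 6.30) at day 10 and finally 1.04 (-1.44 to 4.57). The last of these lay within counting error, and the wide intervals follow from the 1.67 counts of day 0. The descent was better resolved, with 16.3-fold less Nefl on day 14 than on day 5 (log2 change -3.75, -5.68 to -2.74).

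Nefm (ENSMUSG00000022054, chromosome 14, 68082590 to 68124846, minus strand) had 27, 27.1, 111, 55.7 and 21.5 normalized counts. Days 0, 2 and 14 did not differ beyond counting error, and days 5 and 10 stood above them. Its change from day 0 was 2.00 (1.45 to 2.71) at day 5, then 1.02 (0.41 to 1.75) at day 10, and -0.32 (-1.17 to 0.53) at the end. The TPM of Nefm exceeded that of Nefl in each library, 16.8-fold (3.44 to 119) at the start, 1.55-fold (1.17 to 2.07) at day 5 and 4.89-fold (1.82 to 16.3) at the end, with day 2 within counting error at 1.27-fold (0.554 to 2.97). In the GENCODE M21 annotation the 5233 bases of Nefl lie inside the span of Nefm on the other strand, and the transcripts listed for both genes share 1108 exonic bases. The sources used here do not say that strand was kept in library preparation or counting, and on day 0 the fractional counts of both genes added up to a whole 29, so reads of the shared stretch cannot be assigned with certainty to 1 of the 2 genes. The sum of both, 29, 27, 210, 103 and 29 expected counts, does not depend on that assignment and was also highest on day 5.

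The other neuronal filament genes were close to the detection limit. Prph (ENSMUSG00000023484, chromosome 15, 99055174 to 99058978, plus strand), for the peripheral neuron filament peripherin, had 3, 1, 8, 3 and 5 expected counts, and each of its changes from day 0 was within counting error, among them 1.01 (-0.82 to 3.79) at day 5 and 0.46 (-1.77 to 3.28) at day 14. Ina, encoding alpha-internexin, was listed at 0 in each library, and Nefh, the heavy neurofilament chain, had 1 expected count at day 5, 1 at day 10 and 0 otherwise. A count of 0, taken to allow up to 3 counts, allows a level of up to 0.771 to 1.33 per 1000000 expected counts in these libraries. The 13 neuron markers summed to 131, 148, 234, 510 and 1230 TPM over the days, so their sum was highest on day 14, when Nefl and Nefm had come down. That sum was led by Gap43, a growth cone protein that glial cells also express, with 113 normalized counts at the start and 2410 at the end. In normalized counts Tubb3 went from 22.1 to 161, while Map2 went from 196 to 45.6 (-2.08) and Stmn2 from 448 to 163 (-1.45). On day 14, 4 of the 6 neuron markers above the filter were over 2-fold above day 0 and these 2 below, beside 24.5% and 19.9% of all genes. Rbfox3 was listed at 0 in each library and Dcx had at most 1 count. The part of neurons in the Nefl and Nefm values was not tested.

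**Figure D2:**
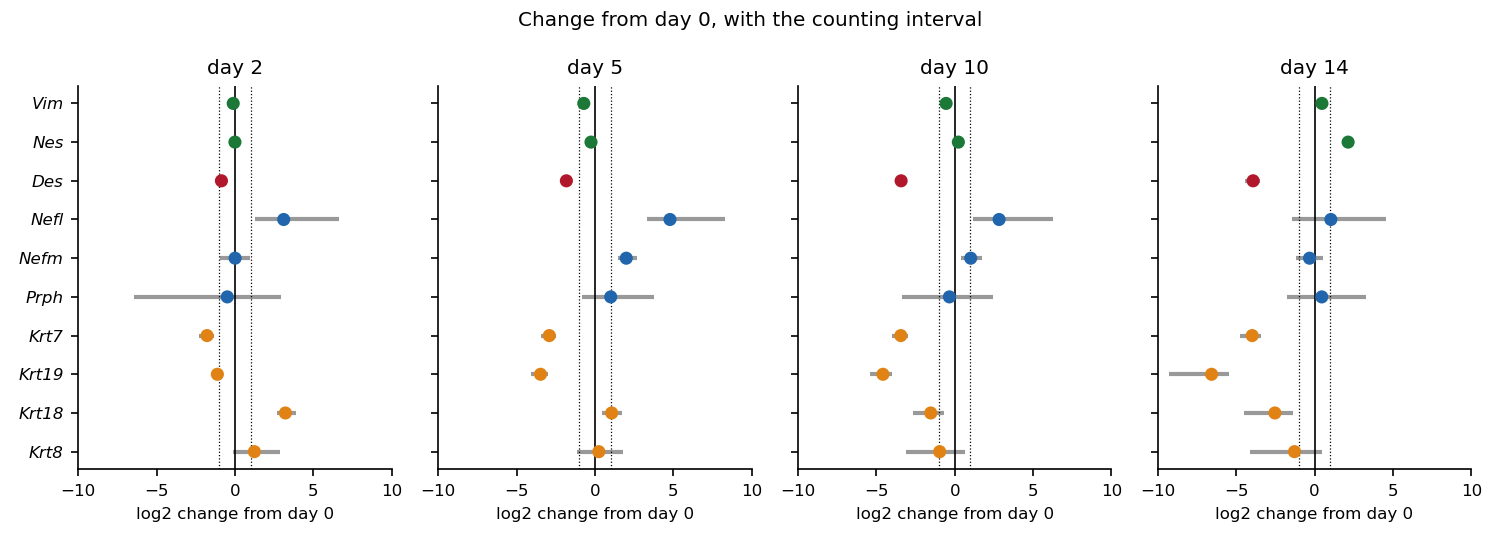
Log2 change of normalized counts from day 0 for the 10 genes in 4 panels, for days 2, 5, 10 and 14, with the 95% counting interval as a grey bar and dotted lines at 2-fold. Des, Krt7 and Krt19 lay left of 0 in the 4 panels, Krt18 lay right on days 2 and 5 and left on days 10 and 14, and Nes left the 2-fold band on day 14.

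On normalized counts Krt7 and Krt19 were highest on day 0 and lower on each later day, while Krt18 was highest on day 2. Krt8 had too few counts to place its peak. Krt19 (ENSMUSG00000020911, chromosome 11, 100140810 to 100148665, minus strand), a type I keratin of simple and ductal epithelia, had 348, 159, 30.6, 13.6 and 2.68 normalized counts from day 0 through day 14. Its day 14 change of -6.57 (-9.31 to -5.46), 130-fold, was the largest of the 10 genes and rested on 352.06 expected counts on day 0 against 3 on day 14. Krt7 (ENSMUSG00000023039, chromosome 15, 101411043 to 101430313, plus strand), a type II keratin of the same epithelia, had 296, 85, 38.5, 26.4 and 17.9 normalized counts. It was already 3.48-fold lower on day 2 (-1.79, -2.28 to -1.35) and 16.6-fold lower on day 14 (-3.98, -4.78 to -3.40), with the steps after day 5 within counting error.

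Krt18 (ENSMUSG00000023043, chromosome 15, 102028180 to 102032027, plus strand), the type I partner of Krt8, was highest on day 2. Its normalized counts were 30.7, 293, 65.6, 10 and 4.47 over the 5 libraries. The day 2 library was 9.55-fold above day 0 (3.21, 2.69 to 3.86) and 65.6-fold above day 14. Days 10 and 14 were below day 0, with changes of -1.53 (-2.64 to -0.66) and -2.53 (-4.50 to -1.40). The day 10 change was under 2-fold on TPM (-0.39) and relative to genes of like length (-0.67). Krt8 (ENSMUSG00000049382, chromosome 15, 101996698 to 102004482, minus strand) lies 23697 bases from Krt18 and is read away from it. With 8, 11, 11, 5 and 3 expected counts, none of its changes from day 0 left counting error, although 2 were over 2-fold, namely 1.23 (-0.12 to 2.85) at day 2 and -1.28 (-4.11 to 0.50) at day 14. From day 2 to day 14 it was 7.42-fold lower (-2.51, -5.37 to -0.97). GENCODE M21 lists a pseudogene of Krt8, so the origin of these few reads is uncertain. Krt18 was thus in excess of its usual partner, per length 5.01-fold (2.25 to 12.6) at the start, 19.1-fold (10.3 to 38.8) at day 2, and within counting error 2.16-fold (0.418 to 13.8) at day 14.

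The keratin set shrank and changed in makeup. Together the 4 keratins had 155, 111, 56.2, 30.2 and 13.5 TPM over the 5 libraries. Krt19 was the main one on day 0 with 64.7% of that sum, Krt18 on days 2 and 5 with 55.8% and 48.2%, and Krt7 on days 10 and 14 with 49.4% and 61.2%. The order of Krt18 and Krt19 thus turned between day 0, when their TPM ratio was 0.0778 (0.0522 to 0.113), and day 2, when it was 1.6 (1.23 to 2.1), while from day 10 on they did not differ beyond counting error (0.705, 0.327 to 1.48, at day 10). Krt19 and Krt7 likewise went from a ratio of 2.21 (1.87 to 2.57) at day 0 through 5.62 (3.83 to 8.04) at day 2 to 0.268 (0.0507 to 0.899) at day 14. These TPM ratios also follow the transcript lengths estimated in each library, described below.

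**Figure D3:**
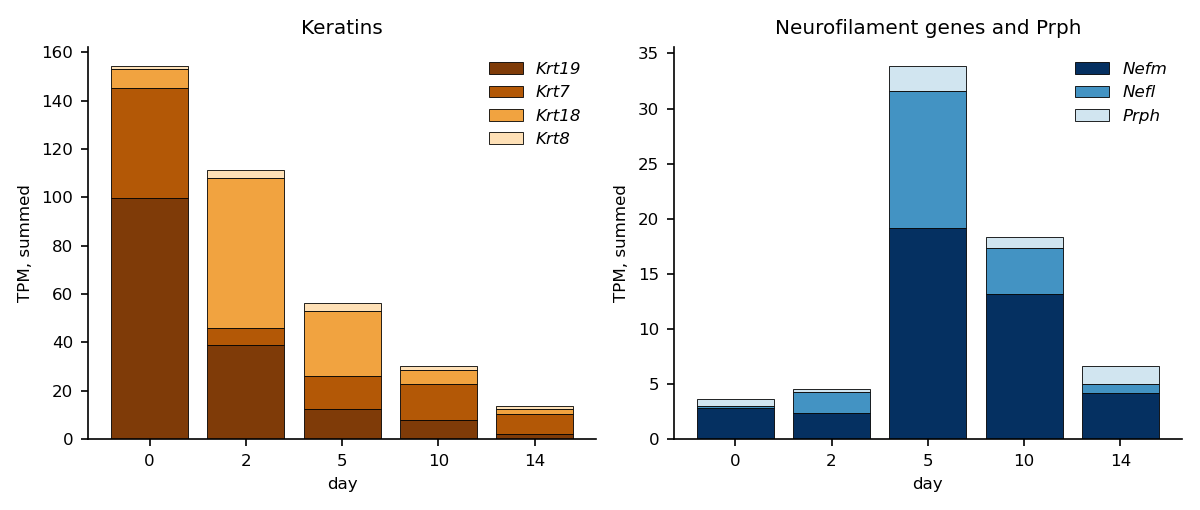
Stacked bars of TPM by day for the 4 keratins (left) and for Nefm, Nefl and Prph (right), 1 library per bar. The keratin bars shrank from 155 TPM on day 0 to 13.5 on day 14, and the neural bars were highest on day 5 at 33.9 TPM.

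Markers of the cells that carry keratins were given beside these values. None of 12 epithelial markers reached 10 expected counts in any library, their TPM sum stayed between 1.21 and 4.05, and the defining genes Ocln, Grhl2 and Crb3 were listed at 0 in each library. Cdh1, the epithelial cadherin, had at most 2 expected counts and Epcam at most 8. At these counts the markers do not resolve changes between days, and the part of epithelial cells in the keratin values was not tested. The mesothelium, another tissue that carries Krt7, Krt8, Krt18 and Krt19, had 7 of 8 markers above the filter and a TPM sum of 97.7, 141, 152, 153 and 65.8. Msln, its defining gene, had 414, 771, 216, 62.8 and 56.3 normalized counts, highest on day 2, and Upk3b had 30.7, 99.5, 129, 159 and 75.1, highest on day 10. The part of mesothelial cells in the keratin values was not tested.

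By count, the 9 genes above the filter are set here against all 13346 genes above it. On day 2, 3 of the 9 were over 2-fold above day 0 (Nefl, Krt8, Krt18) and 2 below (Krt7, Krt19), with 15.2% of all genes above and 13.1% below. On day 5, 3 were above (Nefl, Nefm, Krt18) and 3 below (Des, Krt7, Krt19), with 20.2% and 13.6% of all genes. On day 10, 2 were above (Nefl, Nefm) and 4 below (Des, Krt7, Krt18, Krt19), with 28.7% and 22.3%. On day 14, 2 were above (Nes, Nefl) and 5 below (Des and the 4 keratins), with 24.5% and 19.9%. The median change of the 9 was -0.01, -0.25, -0.96 and -1.28 on the 4 days, against -0.03, 0.05, 0.14 and 0.07 over all genes. The calls of Krt8 and the day 14 call of Nefl lay within counting error, and a list of 9 gives shares only in coarse steps.

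The steps between neighbouring libraries were counted in the same way. From day 2 to day 5, 2 were over 2-fold higher (Nefl, Nefm) and 3 lower (Krt7, Krt18, Krt19), with 19% of all genes higher and 12.5% lower. From day 5 to day 10 none was over 2-fold higher and 5 were lower (Nefl, Des, Krt8, Krt18, Krt19), with 12.8% and 9.5%. From day 10 to day 14, Vim and Nes were over 2-fold higher and 4 were lower (Nefl, Nefm, Krt18, Krt19), with 4.73% and 8.33%. The Krt8 step and the last Krt18 step lay within counting error. The Vim step of 1.03 was under 2-fold on other scales, at 0.66 on TPM, 0.91 on total counts and 0.76 relative to genes of like length. The split from day 2 to day 5 was 2 higher and 2 lower on TPM and on total counts.

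Per length the filament RNA of these cultures was mostly vimentin. Vim held 95.27% to 98.35% of the summed TPM of the 10 genes in the 5 libraries. The 9 others together had 265, 179, 176, 167 and 348 TPM. On day 0 the order after Vim was Krt19 (99.9 TPM), Des (67.6), Krt7 (45.3) and Nes (39.5). By day 14 it was Nes (319 TPM), Des (8.77), Krt7 (8.27) and Nefm (4.16), and Nes alone held 1.99% of the sum against 0.561% on day 0. Gfap, the filament of astrocytes and some other glia, had 0, 1.41, 9.92, 65.8 and 32.8 TPM. Its 150 expected counts on day 14 were 134 after normalization. That is at least 45.2-fold over the 3 counts taken as the limit for the day 0 library, normalized in the same way. Gfap was highest on day 10, and Nes, with 39.5, 32.8, 54.7, 104 and 319 TPM, on day 14.

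The scale on which the libraries are compared moves some of these values. The median gene was shifted from day 0 by -0.20, 0.61, 1.09 and 0.78 on log2 TPM on days 2, 5, 10 and 14, and by -0.11, 0.41, 0.60 and 0.42 on total counts. On normalized counts the median gene was shifted by 0.14 on day 10, but the changes went with gene length. When genes were ranked by length and cut into 10 equal groups, the median normalized change on day 10 was -1.47 in the group of the shortest genes and 1.04 in that of the longest. On TPM as deposited 3 of the 9 genes were over 2-fold above day 0 and 3 below on day 10, and 2 above (Vim, Nes) and 4 below on day 14. The splits of all genes on TPM were 7057 above and 904 below on day 10, and 5548 above and 930 below on day 14, against 3826 above and 2974 below and 3268 above and 2657 below on normalized counts. The day 10 change of Vim turned from -0.55 on normalized counts to 0.55 on TPM, less than the TPM shift of 1.09 of the median gene. Nes, which is in the group of the longest genes, was 2.14 higher on day 14 on normalized counts, 2.98 on TPM and 1.58 relative to genes of like length. Des, Krt7, Krt18 and Krt19 were over 2-fold lower on day 14 under each of 7 other settings of scale and pseudocount, with ranges of -4.20 to -2.81, -4.00 to -2.32, -2.56 to -1.51 and -6.59 to -4.97.

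TPM also depends on the transcript lengths that RSEM estimated in each library. For Vim the mean length was 2193 bases on day 2 and 1541.62 to 1690.5 bases on the other days, and its TPM change on day 2 was -0.91 where normalized counts gave -0.12. For Krt7 the length was 2309.67 bases at the start, 3592.97 at day 2 and 1407.35 at the end. Its step from day 2 to day 5 was -1.12 (-1.77 to -0.52) on normalized counts and 0.87 on TPM, so the direction of that step depends on the scale. For Krt19 it ran from 791.84 bases on day 14 to 1417.28 on day 5. The TPM ratios of Krt19 to Krt7, and the shares of the keratin sum, therefore include changes of estimated length. The lengths of Nefl, Krt8 and Krt18 were constant.

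**Figure D4:**
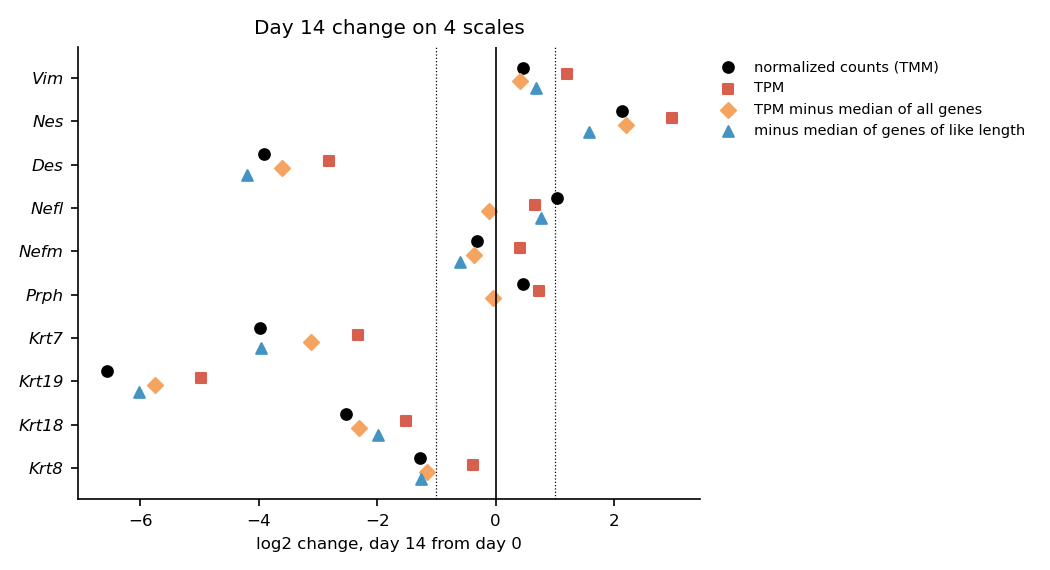
Log2 change from day 0 to day 14 of the 10 genes on 4 scales, with dotted lines at 2-fold: normalized counts, TPM, TPM minus the median of all genes, and normalized counts minus the median of genes of like length (not given for Prph, which was below the filter). Des, Krt7, Krt18 and Krt19 lay left of the 2-fold line and Nes right of it on each scale, while Nefl, Nefm and Prph crossed 0.

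The wider filament family and its linkers held genes that were higher and genes that were lower. Of 32 other intermediate filament genes, 12 passed the filter and 9 were listed at 0 in each library, among them Ina, Krt4, Krt6a and Krt16. On day 14, 3 of the 12 were over 2-fold above day 0 and 4 below, with a median of -0.47, beside 24.5% and 19.9% of all genes. The counts above and below were 2 and 2 on day 2 (15.2% and 13.1% of all genes), 5 and 3 on day 5 (20.2% and 13.6%) and 4 and 4 on day 10 (28.7% and 22.3%). Synm, which encodes synemin, a partner of desmin and vimentin, had 6.93, 30.8, 49, 93.5 and 48.3 normalized counts, with its peak on day 10 (3.58, 2.67 to 5.10). Iffo1, an intermediate filament family orphan, had 60.1 at the start and 204 at the end (1.75, 1.35 to 2.19).

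The nuclear lamins, the filaments under the nuclear envelope, differed from each other. Lmna had 4930, 7040, 2780, 1940 and 3310 normalized counts, lowest on day 10 (-1.35, -1.42 to -1.28). Lmnb1 was highest on day 5 with 200 against 79.2 on day 0 (1.33, 0.97 to 1.73) and lowest on day 14 with 37.5 (-1.06, -1.65 to -0.52). Lmnb1 thus shared the day 5 peak of Nefl and Nefm. Krt20, an epithelial keratin outside the rule for named genes and chosen after its values were seen, had 15 expected counts at the start and at most 1 later.

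Of 24 linkers, regulators and chaperones of intermediate filaments 23 were found and 20 passed the filter. On days 2, 5, 10 and 14, 4, 3, 5 and 4 of the 20 were over 2-fold above day 0 and 4, 4, 5 and 5 below, with medians of 0.04, -0.17, 0.14 and 0.01. The shares of all genes are those given for the other filament genes. Dst, a giant linker of intermediate filaments to other cytoskeletal systems, had 276, 418, 364, 1800 and 2160 normalized counts and was 2.96 (2.79 to 3.15) above day 0 on day 14, a change that had set in by day 10. Padi2, an enzyme that citrullinates filament proteins, had 4.18 at the start and 90.9 at the end (4.15, 3.13 to 6.43). Hspb1 and Cryab, small heat shock proteins that bind filaments, parted ways. Hspb1 had 1280, 499, 132, 55.2 and 60.8 normalized counts (-4.38, -4.77 to -4.05, on day 14). Cryab had 1740, 689, 474, 823 and 3080, below day 0 on days 2, 5 and 10 and above it on day 14 (0.82, 0.74 to 0.91), the directions that Vim also had.

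Jup, which encodes the junction protein plakoglobin, was lower on normalized counts from day 5 on. Its change was -0.62 (-0.83 to -0.40) on day 5, then -1.49 (-1.74 to -1.26) on day 10 and -1.42 (-1.68 to -1.17) on day 14. Aurkb, a mitotic kinase that phosphorylates vimentin, was highest on day 5 (1.26, 0.73 to 1.87) and lowest on day 14, where it had 10 expected counts (-1.92). Dsp, for the desmosomal linker desmoplakin, which was outside the rule for named genes and chosen after its values were seen, had 42 expected counts at the start and 4 at the end.

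In normalized counts, the neural stem cell markers summed to 64.5 on day 0 and 157 on day 5, and the glia markers to 273 and 1710. Nes had 670 and 563 on the same days and scale. On TPM, however, Nes was also higher on day 5, at 54.7 against 39.5, so its order in time depends on the scale. The 8 neural stem cell markers summed to 15.1, 9.26, 45.8, 115 and 191 TPM. Sox2 alone held 75.4 of the 115 TPM on day 10 and 156 of the 191 on day 14. Its normalized counts were 2.97, 7.24, 43.8, 196 and 497. Of the 8, 4 passed the filter. On day 14, 3 of these 4 were over 2-fold above day 0, beside 24.5% of all genes, and Fabp7 was at -0.53. Sox1 was listed at 0 and Pax6 had at most 2.15 expected counts. The 11 Schwann cell and glia markers, which share Gap43 with the neuron list and include Gfap, went from 45.7 through 118, 405 and 2610 to 3360 TPM. The 11 glia markers were over 2-fold above day 0 on days 10 and 14, beside 28.7% and 24.5% of all genes. Their largest step between libraries thus came before day 10, and that of Nes after it. The 10 fibroblast markers summed to 10200 to 12800 TPM, with 2 of them over 2-fold above day 0 on day 14 (Col3a1 3.87, Pdgfra 2.44) and 4 below (among them Twist2 -2.71 and S100a4 -2.41), the 8 macrophage markers to 25.6 on day 0 and 245 on day 5, and the 6 endothelium and pericyte markers to 51.8 on day 0 and 8.37 on day 14. The part of any of these cells in the values of Nes and Vim was not tested.

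**Figure D5:**
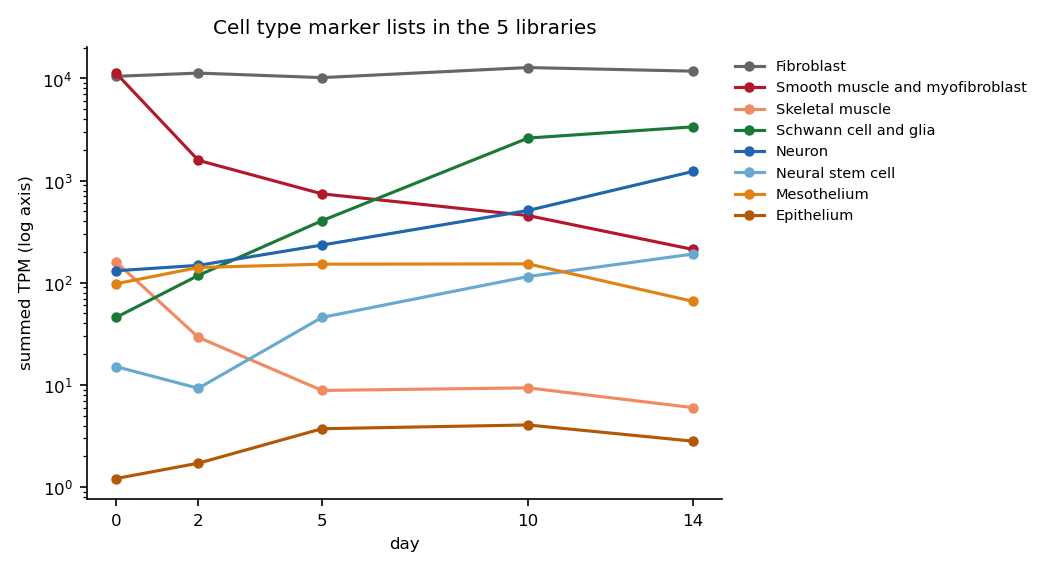
Summed TPM (log axis) of 8 marker lists against day, 1 point per library. The smooth muscle and myofibroblast list went from 11300 to 212 and the Schwann cell and glia list from 45.7 to 3360, while the epithelium list stayed between 1.21 and 4.05.

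For each member that reached 100 expected counts in a library, the closest profiles over the 5 libraries were sought among 8256 genes by the root-mean-square difference of centred log2 values, as a description with 5 points each. Closest to Vim were Tcta (0.08), Aftph (0.14) and the tubulin gene Tuba1a (0.14), the last with 10700, 8370, 5810, 7640 and 16400 normalized counts. Closest to Nes were BC037034 (0.21), the matrix gene Tnc (0.22) and the tubulin gene Tubb2a (0.22). Closest to Nefm were Ogdhl (0.18), the chromatin gene Hmgb2 (0.22) and Lmnb1 (0.29), each highest on day 5.

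Des was close to Aif1l (0.19) and Ptgs2 (0.20). Krt7 was closest to the amino acid transporter gene Slc38a4 (0.15), Cd24a (0.19) and Htr1b (0.25). Krt19 was closest to the smooth muscle genes Cnn1 (0.40) and Actg2 (0.44), followed by Flt4 (0.53). Cnn1 had 357, 134, 14, 10.7 and 2.68 normalized counts beside 348, 159, 30.6, 13.6 and 2.68 for Krt19. Krt18 was closest to Prkg2 (0.23), a cyclic GMP-dependent kinase, with Mapk13 (0.45) and Gchfr (0.53) following, and these 3 genes also had their highest value on day 2.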

How the data were processed

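Total RNA from 5 MEF cultures, 1 per time point, was sequenced after Illumina TruSeq library preparation. Per the submitters' processing notes, reads were aligned with Bowtie and quantified with RSEM against mm10, and versions are not given in the sources used here. The authors deposited expected counts, TPM and FPKM per gene, and the deposited FPKM were not used. Expected counts were rounded only for TMM factors and size factors (edgeR 4.0.16, DESeq2 1.42.0, R 4.3.3) and for intervals (scipy 1.17.1). Genes reaching 10 expected counts in at least 1 library were kept, and over 2-fold on log2 of normalized counts plus 1 was called. With 1 library per time point no test was possible. Symbols and positions came from GENCODE M21 (27247 of 27729 IDs) and promoter windows from RefSeq. The members, lists and named genes were chosen with earlier results of these data known. From the lists of other filament genes and of linkers, up to 6 genes each were named by size of change. They had to reach 100 expected counts in a library and be over 2-fold from day 0 on day 10 or day 14. Scripts were tested on simulated data. Of the 10 other settings tried, 1 was chosen after seeing the data. Depth was 2253748 to 3890334 expected counts per library. The labels and the methods of the study differ in the name of the medium and in the seeding density, and the treatment text gives a last day other than the sample label, which was used. One of the genes with a profile close to Des is not reported here.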

Additional observations from a re-analysis of the deposited data

How the results depend on the processing

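No paired analysis was possible because each time point holds 1 library, and for the same reason no library could be left out of a group. Of 70 single-gene changes (10 genes in 7 comparisons), 43 were over 2-fold. These include changes of Prph, which is below the filter and within counting error. Without Prph, as on the scale of like length, 40 of 63 were over 2-fold. With DESeq2 size factors 40 of the 43 kept their side, with total counts 40, with TPM 34, without Gm42418 and Lars2 43, with a pseudocount of 5 32, and relative to genes of like length 35 of 40. Relative to the TPM median of all genes, a scale chosen after seeing the data, 34 kept it. Krt7 from day 2 to day 5 reversed on TPM to 0.87 and on that last scale to 0.02, and Nefl on day 14 reversed to -0.12. Where a change reversed, the cause was not tested.

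Counts of the 9 genes moved as follows. On day 10 the number above day 0 was 1 with DESeq2 size factors, with a pseudocount of 5, relative to genes of like length and by TPM relative to the median. On day 14 it was 1 with a pseudocount of 5, relative to genes of like length and by TPM relative to the median. From day 10 to day 14 the number higher was 1 with total counts, TPM, like length and TPM relative to the median. From day 5 to day 10 the number lower was 3 with TPM and 3 with a pseudocount of 5, and from day 2 to day 5 it was 5 relative to genes of like length. With 10 or more counts in every library, only Vim, Nes, Nefm, Des and Krt7 remain of the members. Nefl, Krt8, Krt18 and Krt19 drop out, so the next numbers are not out of 9. Under this filter 0 were above and 1 below on day 2, 1 above on day 5, 1 above and 2 below on day 10, and 1 above and 2 below on day 14. The steps then gave 1 higher and 1 lower from day 2 to day 5, 1 lower from day 5 to day 10 and 1 lower from day 10 to day 14. At 4-fold, 0 were below on day 2, 1 above on days 5, 10 and 14, 0 higher from day 2 to day 5, 1 lower from day 5 to day 10, and 0 higher and 0 lower from day 10 to day 14.

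Counts over all genes moved too. On TPM, 1055, 4269, 7057 and 5548 genes were above day 0 on the 4 later days and 531, 904 and 930 below on days 5, 10 and 14. On total counts 1007 were below on day 5 and 1929 on day 10. With no filter 3529 were above on day 2. With 10 or more counts in every library, among the fewer genes then kept, 927, 1091, 1801 and 1500 were above and 915 below on day 2. At 4-fold 715, 1161, 1850 and 1560 were above and 390, 371, 1057 and 815 below. Depth limits Prph, Krt8 and the day 0 and day 14 values of Nefl, which rest on 11 counts or fewer. It also limits the day 14 values of Krt18 and Krt19, which rest on 5 and 3 expected counts.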
